A study of Schizosaccharomyces pombe with 8 samples.

Results

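The pfl genes of the fission yeast Schizosaccharomyces pombe encode flocculins, and 7 of them (pfl2, pfl3, pfl4, pfl5, pfl7, pfl8 and pfl9) were followed here during the response to mating pheromone. The genes were taken by symbol or synonym from a table that pairs the array's spots with genes, and the family was chosen by the measured log2 ratios of pfl8, which were below those of untreated cells at every time with both pheromones. The time course values of pfl8 are therefore given as a description, without a test. Of the 7 genes, 6 had a spot, among 4751 named genes on the arrays, and pfl2 had none. A value on all 6 time course arrays was present for 4 of them, pfl4, pfl5, pfl7 and pfl8, while pfl3 had no value on 1 array and pfl9 on 2.

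Flocculins are large proteins of the yeast cell surface that carry long runs of repeats and hold cells together in clumps by binding sugars on neighbouring cells. In S. pombe the main flocculin is Gsf2, and the pfl genes were named as further flocculins of the same kind. Mating cells use other surface proteins, the agglutinins Mam3 of M cells and Map4 of P cells, to stick to a partner. In the budding yeast Saccharomyces cerevisiae, flocculin genes are controlled by cyclic AMP and by a mating MAP kinase pathway, among other signals. The gene pfl8 also bears the name fta5, given to a protein found together with kinetochore proteins.

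The data came from 8 arrays with 2 colours, on which RNA of 2 kinds was hybridised together to PCR products. M-factor was added at 1 μg/ml to P cells, which were h+ cyr1-, and P-factor at 1 μg/ml to M cells, which were h- sax2- cyr1- in the spelling of the labels (the study's text writes sxa2). RNA of 2, 4 and 6 h was hybridised against the untreated RNA of the same culture, on 1 array for each time. M and P cells were also compared directly on 2 arrays, 1 before treatment and 1 after 6 h, each cell type with its own added pheromone. Both strains lacked cyr1, the adenylate cyclase gene, which was disrupted with ura4+ in a ura4-D18 background, and both carried a deletion marked with LEU2 that removes silent mating-type cassettes. Loss of cyr1 lets cells respond to pheromone without nitrogen starvation. The M cells also lacked a protease that degrades P-factor, whereas the P cells did not carry that mutation. Each cell type was 1 strain, and no array compared cells with cyr1.

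Each value is the log2 of a ratio, a difference between RNAs and not a level, so no gene's level can be set against another's. Nothing in the sources used here gives a separate culture for each time, the 3 arrays of a course share 1 untreated RNA, and the time points stood in for replicates. An SD, a standard error or a p-value therefore covers the spread between arrays, with real change over time included, and not the spread between cultures. Spot intensities were not analysed here, so how far each spot stood above background is unknown, and precision is limited by how few arrays there are. The median difference between the 2 spots of a gene was 0.27 to 0.48 on the time course arrays and 0.09 to 0.10 where M and P cells were compared. The labels of the cell types were borne out by their markers. Before treatment mam1 and mam2, genes of M cells, were at log2 2.15 and 1.65 in M over P cells, and map2 and map3, genes of P cells, at -2.94 and -1.23. The agglutinin gene map4 of P cells was not among the markers chosen and read 0.07 on that array. PCR products of repeat genes can bind RNA of related genes and, being double-stranded, cannot separate sense from antisense RNA. Cross-hybridisation among the pfl genes was not tested.

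In P cells with M-factor, pfl8 was at log2 -3.72 after 2 h, -3.45 after 4 h and -2.82 after 6 h. In M cells with P-factor, pfl8 was at -1.51, -1.78 and -1.91 at the same times. All 6 arrays were thus low for pfl8, and every M-factor array was lower than every P-factor array. How many of all genes part this way was not counted. The means were -3.33 with M-factor (SD 0.46, n = 3), or 10.1-fold lower than untreated, and -1.73 with P-factor (SD 0.20, n = 3), or 3.32-fold lower. Among the 4093 genes with all 6 values, only 3 had a lower mean than pfl8 with M-factor, where it ranked 4th from the lowest, and it ranked 28th from the lowest with P-factor. At least 2-fold lower on all 6 arrays were 34 of these genes, or 0.831%, pfl8 among them. At least 2-fold lower at each of the 3 times were 2.6% of genes with M-factor and 2.34% with P-factor. These ranks and shares use the values by which pfl8 was picked and are no evidence about it. In such whole-culture RNA, fewer cells that express a gene and less RNA in each cell cannot be told apart.

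**Figure D1:**
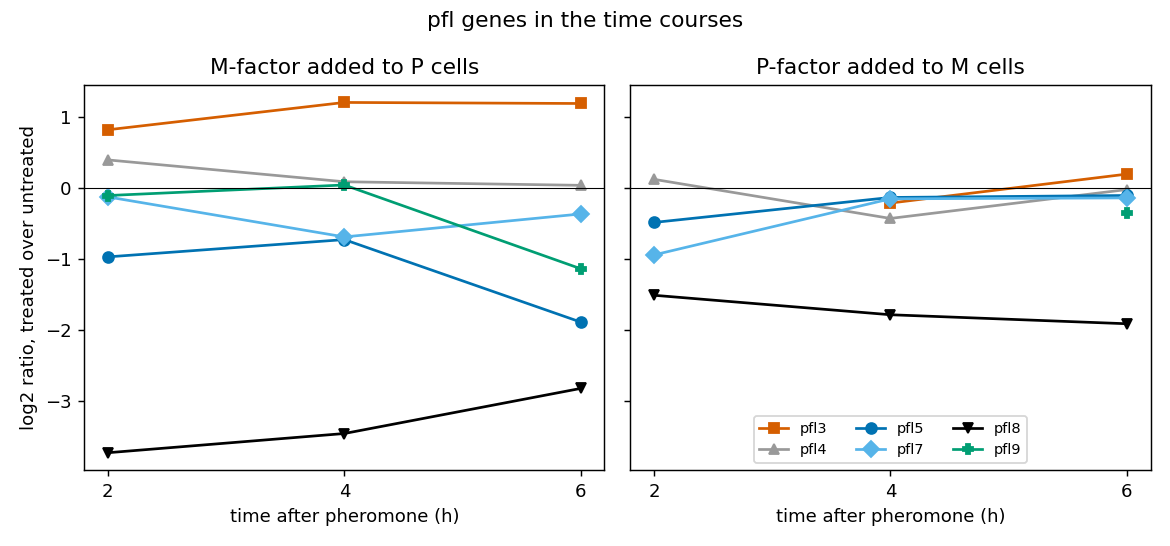
The log2 ratio of treated over untreated cells (vertical axis) of the 6 spotted pfl genes against time after pheromone in h, in P cells with M-factor (left) and in M cells with P-factor (right), 1 point for each array with a value. pfl8 lies lowest at every time, between -3.72 and -2.82 on the left and between -1.91 and -1.51 on the right, and pfl3 lies highest on the left, between 0.82 and 1.21.

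The 2 spots of pfl8 differed widely on a pair of the M-factor arrays. After 2 h the spots read -3.42 and -4.03, but after 4 h they read -1.73 and -5.18, and after 6 h -4.00 and -1.63. The gap of 3.45 after 4 h was matched or passed by 33 of 4381 genes with both spots (0.753%), and the gap of 2.37 after 6 h by 53 of 4602 (1.15%). The spot that read lower was the second after 4 h and the first after 6 h. With P-factor the spots lay closer, at -1.23 and -1.78, then -1.61 and -1.95, then -1.59 and -2.23. The size of the pfl8 ratio with M-factor after 4 and 6 h was thus poorly fixed. On the M-factor arrays the means after 2, 4 and 6 h differ by less than the gap between spots after 4 or 6 h, and no order of the times is read from them. The dyes were the other way round on the M-factor array of 2 h only (treated RNA in Cy5, otherwise in Cy3), and pfl8 was at -3.72 there and at -3.45 on the next array.

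**Figure D2:**
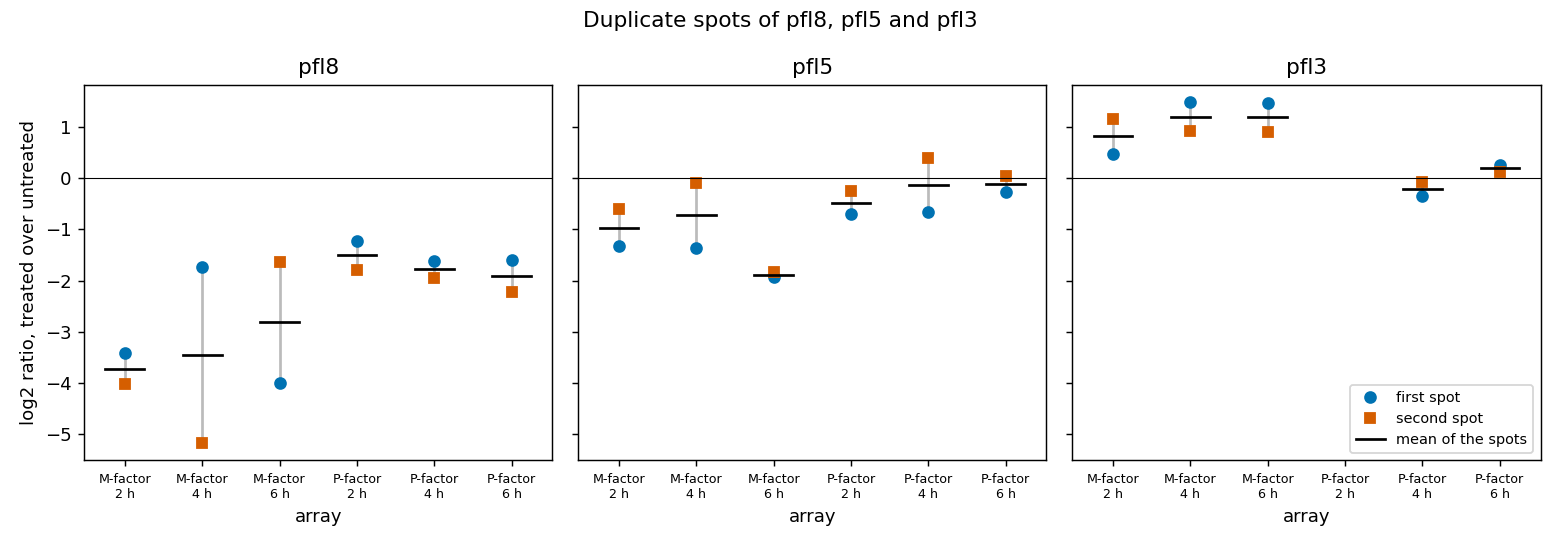
Both spots of pfl8, pfl5 and pfl3 (circles and squares) and their mean (bar) as log2 ratios of treated over untreated cells (vertical axis) on each of the 6 time course arrays (horizontal axis). The pfl8 spots part by 3.45 on the M-factor 4 h array and by 2.37 on the 6 h array, and pfl3 has no value on the P-factor 2 h array.

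The pfl8 mean with P-factor lay above the M-factor mean by 1.60 on the log2 scale, on the same arrays by which pfl8 was chosen, so this too is a description without a test. The difference was 1.57 over the first spots and 1.62 over the second spots, and between 1.40 and 1.85 with each time course array left out in turn. It was 1.09 with the arrays scaled to 1 spread, and 2.66 with all arrays read as natural log. Over all genes the SD was 0.89 to 0.93 on the M-factor arrays and 0.70 to 0.85 on the P-factor arrays. What this spread adds to the difference was not tested. At 2, 4 and 6 h taken singly the first spots gave 2.18, 0.12 and 2.41 and the second spots 2.24, 3.22 and -0.60, so that at 6 h the second ran against the mean. The cell types, their pheromones and the sax2 mutation changed together between the courses and cannot be told apart.

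The next gene, pfl5, fell in P cells with M-factor. Its log2 ratio was -0.97 after 2 h, -0.72 after 4 h and -1.88 after 6 h, all 3 arrays low and the last the lowest. The mean of -1.19 (standard error 0.22, n = 3) was 2.28-fold lower than untreated and passed in limma (adjusted p = 0.00209, over all genes). With P-factor the 3 values were -0.48, -0.13 and -0.10, also below 0, but the mean of -0.24 did not pass (adjusted p = 0.414). The 2 courses did not overlap for pfl5, but how many of all genes share this was not counted. The P-factor mean was higher by 0.95 (95% interval 0.26 to 1.64), which did not pass in limma over all genes (adjusted p = 0.0923). A lesser response to P-factor was therefore not established for pfl5, nor were equal responses.

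The fall of pfl5 was larger on 1 of its spots. The first spot read -1.33, -1.36 and -1.94 with M-factor, and the second -0.61, -0.08 and -1.83. The second spots alone gave a mean of -0.84 that missed the threshold (adjusted p = 0.0569), and the first spots alone -1.54 (adjusted p = 0.000897). The spots came together only after 6 h, with a gap of 0.10, when pfl5 ranked 79th from the lowest of 4657 genes. With P-factor after 4 h the spots had opposite signs, -0.66 and 0.40.

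In contrast to pfl8 and pfl5, pfl3 was higher in P cells with M-factor. Its log2 ratio was 0.82 after 2 h, 1.21 after 4 h and 1.19 after 6 h, and all 6 spots lay above 0, between 0.48 and 1.49. No value of pfl3 existed on the P-factor 2 h array, so it stood outside the fit that needs all 6 arrays. Fitted on the M-factor arrays alone, pfl3 rose by 1.07 on average (standard error 0.19, 2.10-fold, adjusted p = 0.00514 over 4615 genes, limma), where 35% of all genes were called. The other 2 values, with P-factor, were -0.21 after 4 h and 0.20 after 6 h, on either side of 0 and below all 3 M-factor values. How many of all genes part this way was not counted, so nothing is read from it. In a fit that took genes with at least 2 values in each course, the P-factor mean of pfl3 was -0.01 (adjusted p = 0.981). The P-factor mean minus the M-factor mean was -1.08 there and did not pass (adjusted p = 0.0551).

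The remaining genes passed no test or were seen on few arrays. With M-factor pfl4 read 0.40, 0.09 and 0.04, and with P-factor 0.12, -0.43 and -0.02. Neither mean of pfl4 passed (0.18, adjusted p = 0.386, and -0.11, adjusted p = 0.625), and the difference of -0.28 had a 95% interval of -0.79 to 0.23. In the M-factor course pfl7 read -0.12, -0.69 and -0.36, and in the P-factor course -0.94, -0.15 and -0.14. All 6 pfl7 values were below 0, but the means of -0.39 (adjusted p = 0.123) and -0.41 (adjusted p = 0.127) did not pass, and the P-factor values of 2 and 4 h came from 1 spot each. The difference between the pheromones for pfl7 was -0.02 (95% interval -0.64 to 0.60), which leaves room for a change of either sign. With M-factor pfl9 read -0.10, 0.04 and -1.13, so that only the 6 h array was low. Its single P-factor value, after 6 h and from 1 spot, was -0.35, and the M-factor mean of -0.40 did not pass (adjusted p = 0.253, M-factor arrays alone).

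Leaving pfl8 out, 1 of the 3 pfl genes tested was called with M-factor, pfl5, where 47.2% of all genes were called. With P-factor 0 of the 3 were called in limma, where 36.4% of all genes were. At an unadjusted p of 0.05, where 47.2% of all genes passed in limma with P-factor and 36.8% in the methods' t-test on the 3 arrays, 0 of the 3 passed in either. Between the 2 pheromones, limma called 0 of the 3 as different, where 4.64% of all genes were called, and at an unadjusted 0.05 it passed 1 of them, pfl5, and 26.7% of all genes. The family was chosen with these arrays in view, so nothing is read from these counts. The pfl genes did not share 1 course with M-factor, since pfl8 and pfl5 were lower on all 3 arrays, pfl3 was higher on all 3, and pfl4 stayed within 0.40 of 0.

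Direct comparison of the cell types showed no pfl gene at 2-fold or more. Before treatment, M over P cells gave a log2 ratio of -0.24 for pfl3, -0.15 for pfl4, 0.16 for pfl5, 0.17 for pfl7, -0.18 for pfl8 and 0.00 for pfl9. On that array 0 of the 6 pfl genes, and 0.842% of all genes, were at 2-fold or more. After 6 h of pheromone the ratio was -0.18 for pfl3, 0.01 for pfl4, 0.07 for pfl7 and -0.01 for pfl9, while pfl8 was at -0.80 and pfl5 at 0.60. On the 6 h array 0 of the 6, and 0.442% of all genes, were at 2-fold or more. The 2 spots of each gene lay close, -0.89 and -0.71 for pfl8 and 0.62 and 0.57 for pfl5. Treated M cells thus had 1.74-fold less pfl8 signal and 1.51-fold more pfl5 signal than treated P cells. These values ranked pfl8 11th from the lowest and pfl5 32nd from the highest of 4751 genes, on an array where few genes differed. Each comparison was 1 array, with no replicate and no test. As given below, the M over P arrays showed little of the differences seen by the time courses. Sizes here are therefore not set beside those of the time courses. The log base of both arrays was likely but not settled. Read in the other base, the 6 h array put pfl8 at -0.55, pfl5 at 0.41 and pfl3 at -0.12. The untreated array was not reread in another base.

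**Figure D3:**
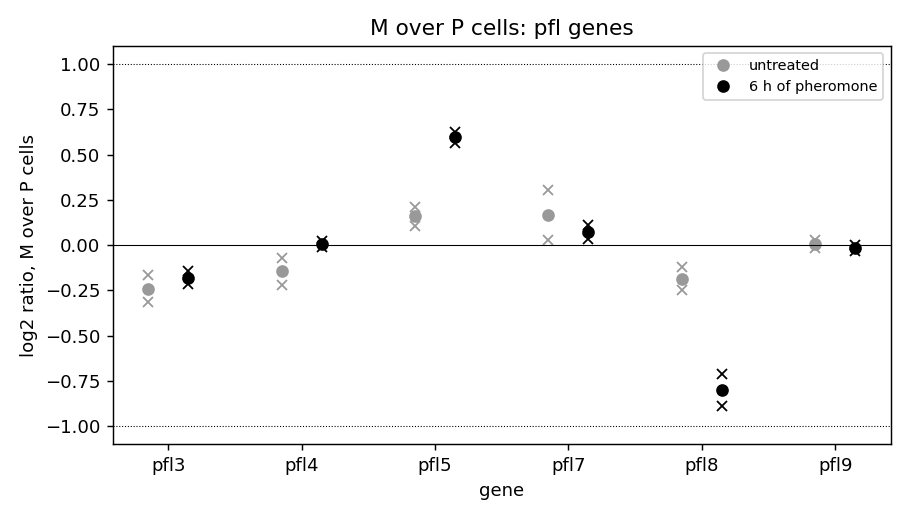
The log2 ratio of M over P cells (vertical axis) for the 6 spotted pfl genes (horizontal axis), untreated in grey and after 6 h of pheromone in black, with the mean of both spots as a dot, each spot as a cross and 2-fold as dotted lines. After 6 h pfl8 (-0.80) and pfl5 (0.60) stand away from 0, and the other 4 genes lie between -0.18 and 0.07.

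The same 4 RNAs are linked by a further route, since the 6 h P-factor ratio minus the 6 h M-factor ratio measures what the change of the M over P ratio from untreated to 6 h measures. For pfl8 the time courses gave 0.91 and the M over P arrays -0.61, opposite in sign and 1.52 apart. A gap this wide occurred in 1.59% of 4597 genes. The spots of pfl8 divided here. The first spot gave 2.41 by the time courses and -0.77 by the M over P arrays, whereas the second gave -0.60 and -0.46, a gap of 0.13. The first spot is the one that read -4.00 on the M-factor 6 h array. At 6 h the second spot alone thus put pfl8 lower with P-factor than with M-factor, against the order of the means.

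For pfl5 both routes were above 0, with 1.78 by the time courses and 0.44 by the M over P arrays, a gap of 1.34 that 2.46% of genes matched. Both pfl5 spots showed this, at 1.68 and 0.52 and at 1.89 and 0.35. The routes gave -0.99 and 0.06 for pfl3, and 0.78 and -0.02 for pfl9. For pfl7 they gave 0.23 and -0.10, and for pfl4 -0.06 and 0.15. Signs were opposite for 5 of the 6 genes, all but pfl5. The share of all genes with opposite signs was not counted, so nothing is read from this. Over all genes the routes differed by a median of 0.35, the time courses spread more widely (SD 0.61) than the M over P arrays (SD 0.22), and the 371 genes at 2-fold or more by the time courses had the same sign by both routes in 264 cases (71.2%). In those 371 genes the M over P arrays showed a median share of 0.07 of the time course difference. Why the routes differ was not tested.

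**Figure D4:**
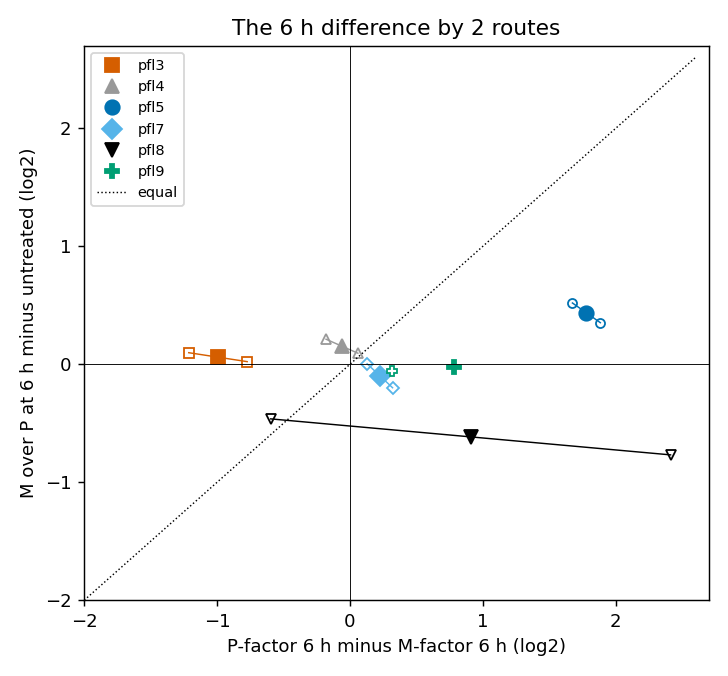
The 6 h difference between the responses by the time courses (horizontal axis, log2) and by the M over P arrays (vertical axis, log2), with each gene's mean of spots filled, its single spots open and joined by a line, and a dotted line where both routes are equal. The open pfl8 symbols lie at 2.41 and -0.60 on the horizontal axis, the second near the dotted line, and pfl5 lies at 1.78 and 0.44.

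Position was looked up in the annotation of the RefSeq assembly, by gene order only. Counted in coding genes from the nearest chromosome end, pfl9 had 16 between it and the end, pfl5 30, pfl8 32 and pfl7 35, against 251 for pfl3, 367 for pfl4 and 656 for pfl2. Of all 5113 coding genes on the 3 chromosomes, 216 (4.22%) lay as near an end as these 4. The farthest of the 4 set that distance, so nothing is read from the share. The genes beside pfl8 did not share its values. The spore wall gene isp3 on 1 side had an M-factor mean of -0.04 and a P-factor mean of 0.14, and pdc101, which encodes a pyruvate decarboxylase, had means of 0.76 and 1.01, the latter over 2 arrays. Beside pfl7, aat1, an amino acid transporter gene, was at -2.41 and -2.60, far below pfl7 itself. Beside pfl3, frp2, a ferric reductase gene, was at -1.14 and -0.69, opposite to pfl3 with M-factor, while on the other side apl2, an adaptin gene, was at 0.46 and 0.39, above 0 as pfl3 was with M-factor. Beside pfl7 on its other side, abc3 was at 0.55 and -0.10. Beside pfl9, SPAC186.02C was at -1.64, -1.31 and -1.93 with M-factor, lower than pfl9 at each time, and SPAC869.01 was at -1.64, -0.42 and -0.59. Beside pfl4, ubp5 was at 0.19 and 0.97. No neighbour of pfl5 had a value here. These neighbours were given for their place and not by the rule for named genes.

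The genes most like pfl8 over all 8 arrays, by the root mean square difference of log2 ratios among 4092 genes, were alr2 (0.58), SPAC24H6.10C (0.59), ani1 (0.66), gar2 (0.72) and pgt1 (0.75). The nucleolar protein gene gar2, which serves ribosomal RNA processing, had an M-factor mean of -2.44 and a P-factor mean of -1.65, and pgt1, a glutathione transporter gene, had -2.42 and -1.18. None of the 5 was as low as pfl8 in treated M over P cells, where they lay between -0.14 and 0.23. For pfl5 the nearest genes were slu7, a splicing factor gene (0.29), yhb1, a flavohaemoprotein gene (0.29), rok1, an RNA helicase gene of ribosome assembly (0.31), alp41, a small GTPase gene of tubulin assembly (0.35), and mpc1, a gene of the mitochondrial pyruvate carrier (0.36). Of these yhb1 came closest to pfl5 in treated M over P cells, at 0.45 against 0.60. No pfl gene was among the 5 nearest to pfl8 or among the 5 nearest to pfl5. The genes pfl3 and pfl9 lacked values on some of the 8 arrays and could not enter these lists. For pfl3, pfl4, pfl7 and pfl9 no such list was made, for pfl3 for want of a P-factor 2 h value.

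Other adhesins of S. pombe included some that rose. Of 5 listed, 4 were tested. Of these 3 rose with M-factor, as did 24.1% of all genes tested, 3 rose with P-factor, as did 18.1%, and the other gene passed neither way in each course, with a median of 1.30 for M-factor and of 0.81 for P-factor against -0.02 for all genes in both. The agglutinin gene mam3 read 0.97, 1.79 and 2.05 in P cells with M-factor and 5.12, 7.99 and 4.72 in M cells with P-factor. Its means of 1.60 and 5.94 both passed (adjusted p = 0.0294 and 0.0001), and so did their difference of 4.34 (adjusted p = 0.0225). For map4, the agglutinin gene of P cells, the means were 1.00 in P cells with M-factor (adjusted p = 0.00288) and 0.86 in M cells with P-factor (adjusted p = 0.0091). In M over P cells map4 was at 0.07 untreated and 0.06 after 6 h, so its spots showed little difference between the cell types. The paper's arrays did not pick out map4, and its real-time PCR found the gene P-specific. With M-factor pfl6 was at 0.36 and did not pass (adjusted p = 0.167). The other calls, named after their values were seen, were pfl6, a flocculin gene outside the 7, with P-factor (0.76, adjusted p = 0.0187) and SPBPJ4664.02, a gene for a large surface protein of repeats, with M-factor (1.70, adjusted p = 0.000874). With P-factor SPBPJ4664.02 was at -0.03 (adjusted p = 0.942) and its responses differed by -1.72 (adjusted p = 0.0336).

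Regulators of flocculation were called both up and down. Of 14 listed, 12 were tested, 3 rose and 3 fell in the M-factor course, and 2 rose and 4 fell in the P-factor course, with medians of -0.07 and -0.33. The 6 calls of 12 in each course stand beside 47.2% of all genes called with M-factor and 36.4% with P-factor. The co-repressor gene tup11 was at -0.62 with M-factor (adjusted p = 0.166) and fell by 1.47 with P-factor (adjusted p = 0.0112). The gene gsf1 encodes a transcription factor that holds back flocculation and was at 0.64 with M-factor (adjusted p = 0.0789) and rose by 1.25 with P-factor (adjusted p = 0.0079). The other calls, named after their values were seen, were rises of cbf12 and srb8 with M-factor and of lkh1 with both, and falls of cbf11 and tup12 with both, of adn2 with M-factor and of srb10 with P-factor. In S. pombe cbf12 promotes cell adhesion and cbf11 opposes it, lkh1 encodes a kinase whose loss causes flocculation, and srb8 and srb10 encode parts of the Mediator kinase module. None of the 12 was called different between the pheromones in limma, where 4.64% of all genes were called. The smallest adjusted p was 0.0581, for srb8. At an unadjusted 0.05, 4 of the 12 passed in limma, as did 26.7% of all genes. The activator gene mbx2 was at -0.79 with M-factor (adjusted p = 0.082) and -0.71 with P-factor (adjusted p = 0.129).

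Of 16 listed proteins of the cell wall and its remodelling, 13 were tested, 5 rose and 3 fell in the M-factor course, and 4 rose and 1 fell in the P-factor course, with medians of 0.23 and 0.38. These calls too stand beside 47.2% and 36.4% of all genes. The endoglucanase gene eng1, whose product parts daughter cells, read -0.44, -4.38 and -4.28 in the M-factor course and -0.26, -2.48 and -2.88 in the P-factor course. Unlike pfl8, eng1 was thus near 0 after 2 h and low only later. Its mean fell by 3.03 with M-factor (adjusted p = 0.00774), and with P-factor it was -1.87 and did not pass (adjusted p = 0.0683). The wall glucanase gene bgl2 rose with both, by 2.04 (adjusted p = 0.000387) and 1.88 (adjusted p = 0.00099). The lists describe what lies around the pfl genes and were chosen with earlier results of these arrays known.

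**Figure D5:**
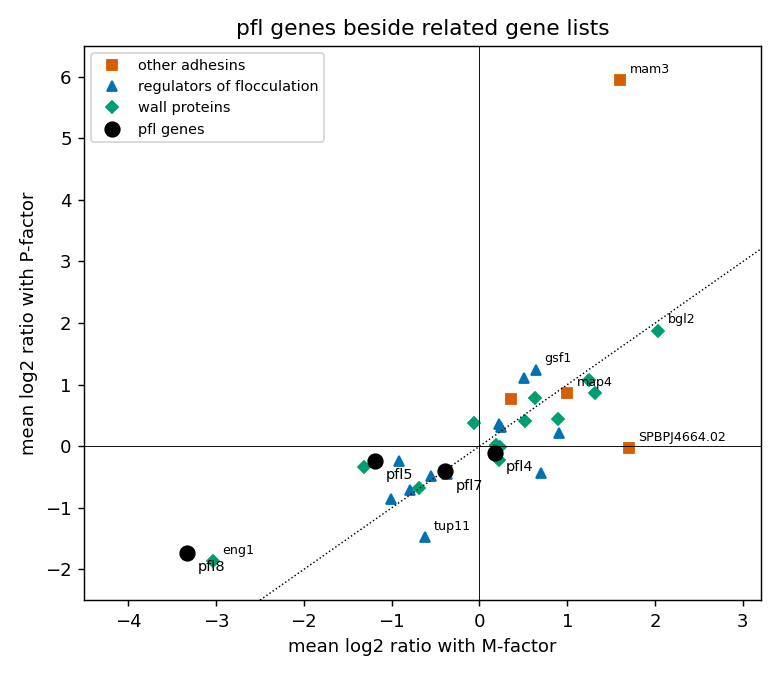
The mean log2 ratio with M-factor (horizontal axis) against that with P-factor (vertical axis) for the 4 pfl genes with all 6 values (black dots) and the tested genes of 3 lists, with a dotted line where both are equal. pfl8 lies at -3.33 and -1.73, next to eng1 at -3.03 and -1.87, while mam3 stands alone at 1.60 and 5.94.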

How the data were processed

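Spots were quantified in Imagene by the authors, and a lowess normalisation was applied in GeneSpring. On the M-factor arrays of 2 and 4 h the authors deposited log2 values of channel 1 (treated or M cells) over channel 2. The other 6 arrays were read as natural log values of that ratio. The bases of the time course arrays were found by recomputing the study's mean fold changes. This combination met 150 of 155 genes with M-factor and 119 of 155 with P-factor, and any other at most 13. A gene was met within 2%, or within a small fixed margin where the fold change was low. Neither array of M over P cells was part of this check, so the base of each is likely, not settled.

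All values were turned into log2. Of 11520 spots, 9522 had 1 gene symbol, 134 several and 1864 none; only spots with 1 symbol were named, and 2 spots of a gene were averaged. No pfl spot was at the floor of the deposited values, a ratio of 0.01. The 4093 genes with all 6 time course values were fitted with limma 3.58.1 in R 4.3.3, 1 mean per pheromone and 1 shared spread per gene, and adjusted by Benjamini-Hochberg at 0.05 over all of them. Standard errors come from this fit. Python 3.11.15 with pandas 2.3.3 was used for the rest. The fit was also run on simulated data whose errors were independent between arrays, whereas the real arrays of a course share 1 untreated RNA. That run is therefore no check of the p-values given here. Same-time arrays of the courses deviated together (r of 0.35, 0.104 and 0.349, against at most 0.0374 for other pairs). Deviations cancel within a course, so positive same-time values push the other pairs down, and pairing by time was not settled. Time as a block was an alternative.

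The difference between the pheromones was planned as a test for pfl8 too, and was not tested for it, since the same arrays chose the gene. The pfl genes and the lists were chosen with earlier results of these data known. Named were all 7 genes, 2 genes of each list with the largest mean over both courses, and the 5 genes most like pfl8 and pfl5; list genes without all 6 values were not ranked. Listed regulators were matched by synonym where needed (med12 as srb8, cdk8 as srb10). Promoters and protein sequences were not analysed here.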

Additional observations from a re-analysis of the deposited data

How the results depend on the processing

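The pfl8 means, which chose the family and whose sign no setting could be expected to turn, lay between -4.39 and -3.02 with M-factor and between -1.99 and -1.20 with P-factor over the alternatives. Besides pfl8, 1 pfl gene was called with M-factor, pfl5. This count was 0 with second spots only, with the methods' t-test or with at least 2-fold one way at each time. It was 2, with pfl3 added, for genes with 2 of 3 values or with each course fitted alone, and 1 to 2 when 1 array was left out, the 2 without the P-factor 2 h array. The methods' t-test called 4 of 4615 genes with M-factor and 6 of 4099 with P-factor after Benjamini-Hochberg, and at an unadjusted 0.05 it called 1305 and 1510, pfl3 among the former. The count of genes whose 6 h routes had opposite signs was 5, and 1 with second spots only, where pfl9 had no time course difference. Signs turned only for values that had not passed. The pfl7 difference of -0.02 became 0.0055 with array medians subtracted, 0.066 with second spots, 0.10 with all arrays as natural log and 0.070 as log2, and -0.17 to 0.25 with 1 array left out. The P-factor mean of pfl5 became 0.066 with second spots, and that of pfl4 lay between -0.22 and 0.052 with 1 array left out. Time as a replicate block changed no call (pfl5 with M-factor -1.19, adjusted p = 0.00296). The difference between the pheromones was called in limma for 0 pfl genes other than pfl8 under every alternative run for it, including each array left out. With 1 array left out, a course of 2 arrays was assumed to vary like the other. Spot intensity, and so signal over background, is unknown.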

Other observations

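The main flocculin gene gsf2 could not be given a value, since its 4 spots carry the symbols of 2 genes, gsf2 and SPCC1795.13. These spots fell into 2 pairs with opposite signs. One pair had M-factor means of -1.63 and -1.56 and P-factor means of -1.29 and -1.04. The other pair had M-factor means of 1.66 and 1.18 and, over 2 arrays each, P-factor means of 0.35 and 0.53. Neither pair was assigned to a gene here. In untreated M over P cells the 4 spots lay between -0.29 and -0.03, and after 6 h between -0.27 and -0.01.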
